A study of Mus musculus with 8 samples.

Results

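The genes described here are 9 targets of bone morphogenetic protein (BMP) signalling through Smad1 and Smad5: Id1, Id2, Id3, Id4, Smad6, Smad7, Smad9, Bambi and Atoh8. They were taken by symbol from the expected-count tables of both sequencing runs, where each had a single entry, and they make up 9 of the 34399 gene symbols measured. The RNA came from GFP-positive fibroblasts sorted out of mouse heart ventricles at 4 weeks after TAC (transverse aortic constriction), surgery that narrows the aorta and loads the heart with pressure. The mice were 8 to 10 weeks old at surgery. All carried a tamoxifen-dependent Cre (MerCreMer) knocked into either Postn or Tcf21, together with a Rosa26 eGFP reporter, and all were given tamoxifen, 100 mg/kg on 2 days by injection and then 40 mg/kg in chow.

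The 4 groups held 2 libraries each, named by HK numbers. Smad2/3 DKO fibroblasts (HK15 and HK16) lacked Smad2 and Smad3, from loxP-targeted alleles, and were set against the Cre-positive, GFP-positive Postn-Cre control (HK3 and HK4). Tgfbr1/2 DKO fibroblasts (HK2 and another HK4) lacked Tgfbr1 and Tgfbr2 and were set against the Tcf21-Cre control (HK6 and HK7). Postn marks fibroblasts activated by injury and Tcf21 marks resident fibroblasts and their descendants, so the drivers need not label the same cells. Sequencing run, Cre driver and targeted genes changed together between the pairs and cannot be told apart when levels are set across them. Nothing in the labels says whether the libraries of a group came from separate animals, so the tests measure the spread between these libraries, which may be technical.

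BMPs bind type I and type II receptors that phosphorylate Smad1, Smad5 and Smad8 (the product of Smad9), whereas TGF-β receptors mainly phosphorylate Smad2 and Smad3. Both kinds of receptor-activated Smad act on most of their target genes together with Smad4. Id1, Id2 and Id3 are among the most rapid BMP targets, and Smad6, Smad7, Bambi and Atoh8 are also induced by BMP. Smad7 and Bambi are not private to BMP, since TGF-β induces them as well. In the heart, TGF-β and Smad3 drive the conversion of fibroblasts to matrix-producing myofibroblasts, and BMP signalling is often described as opposing it.

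No member passed the threshold in either knockout (edgeR quasi-likelihood test, Benjamini-Hochberg adjusted p under 0.05 over all genes tested), a threshold passed by 1.29% of genes in the Smad2/3 comparison and 3.96% in the Tgfbr1/2 comparison. In Smad2/3 DKO fibroblasts all 9 had a fitted log2 fold change above 0 against the Postn-Cre control, as did 50.6% of all genes, and Id3 and Smad7 came nearest to the threshold, each at about 2-fold. In Tgfbr1/2 DKO fibroblasts 2 of the 9 had a log2 fold change above 0 against the Tcf21-Cre control, as did 49.1% of all genes, and Id2 and Id4 lay furthest below 0. The difference between the effects passed for no member, against 1.83% of genes.

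**Figure D1:**
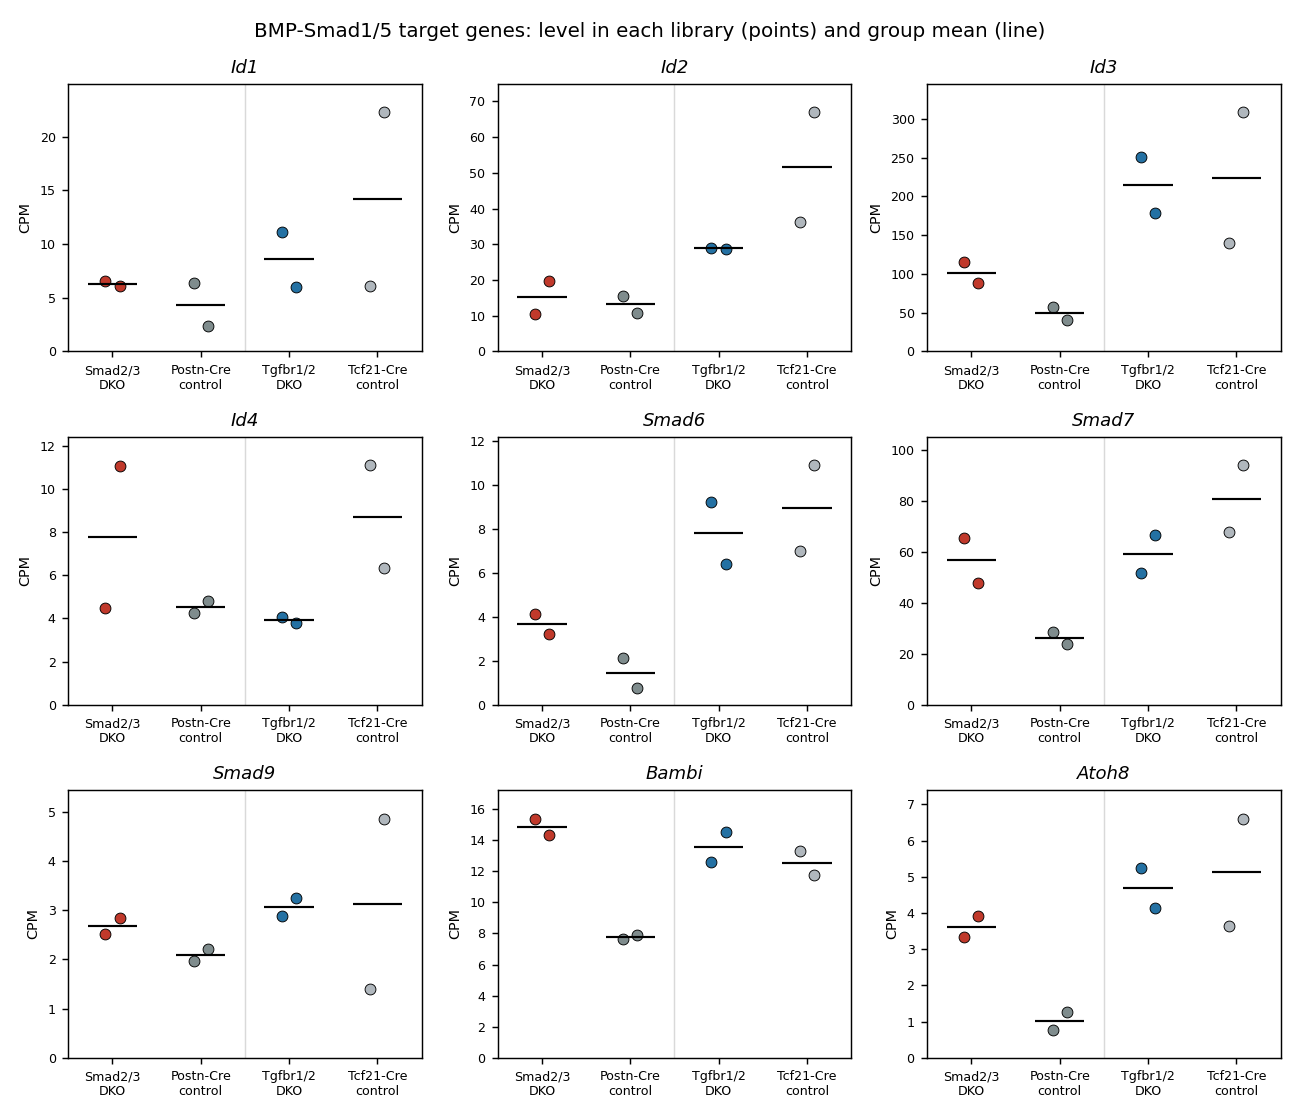
Level of each of the 9 genes in CPM (counts per 1000000 counts of the library), on linear axes from 0, with 1 point per library and a line at the mean of the 2 libraries of each group. Within each pair the knockout stands left of its control. The Postn-Cre control libraries lie lowest for Id3, Smad6, Smad7, Bambi and Atoh8, and the Tcf21-Cre control libraries lie far apart for Id1, Id3 and Smad9.

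The Id proteins are dimerisation partners that lack a DNA-binding region and hold basic helix-loop-helix factors off DNA. Id3 was the most abundant of them in every library. Per kilobase of exon it made up 71.4% to 86.1% of the summed level of the 4 Id genes. That sum was 75.3 and 65.9 CPM per kb in Smad2/3 DKO fibroblasts and 45.3 and 30.4 CPM per kb in the Postn-Cre control. It was 162.9 and 117.9 CPM per kb in Tgfbr1/2 DKO fibroblasts and 101.2 and 220.6 CPM per kb in the Tcf21-Cre control. The knockout and control libraries did not overlap in the run of the Postn driver, and in the other run the knockout libraries lay between the controls.

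Id3 (ENSMUSG00000007872, chr4:136143497-136145755, plus strand, mm10) had 115 and 88.9 CPM in Smad2/3 DKO fibroblasts, against 57.9 and 40.6 CPM in the Postn-Cre control. Both knockout libraries lay above both control libraries, and the fitted log2 fold change was 0.99 ± 0.23 (SE), with an unadjusted p of 0.00146 and an adjusted p of 0.0774. In Tgfbr1/2 DKO fibroblasts Id3 had 251 and 179 CPM, against 140 and 309 CPM in the Tcf21-Cre control. Here the control libraries enclosed the knockout libraries, and the log2 fold change was -0.01 ± 0.41 (adjusted p = 0.993).

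Id1 (ENSMUSG00000042745, chr2:152736251-152737410, plus strand), the classical direct target of Smad1 and Smad5, was much lower than Id3 in CPM per kb in every library. It had 6.58 and 6.05 CPM in Smad2/3 DKO fibroblasts, against 6.35 and 2.35 CPM in the Postn-Cre control. The knockout libraries lay close to the higher control library, and the log2 fold change of 0.47 ± 0.56 was below its own error (adjusted p = 0.798). In Tgfbr1/2 DKO fibroblasts it had 11.2 and 6.01 CPM, against 6.13 and 22.3 CPM in the Tcf21-Cre control. A single control library, HK7, was the highest of all 8, and the log2 fold change was -0.69 ± 0.67 (adjusted p = 0.636).

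Id2 (ENSMUSG00000020644, chr12:25093799-25097140, minus strand) had 10.6 and 19.8 CPM in Smad2/3 DKO fibroblasts, against 15.5 and 10.8 CPM in the Postn-Cre control. These groups overlapped, with a log2 fold change of 0.15 ± 0.40 (adjusted p = 0.925). In Tgfbr1/2 DKO fibroblasts it had 29.0 and 28.7 CPM, against 36.2 and 66.9 CPM in the Tcf21-Cre control. Both knockout libraries lay below both controls, with a log2 fold change of -0.77 ± 0.31 (unadjusted p = 0.0364, adjusted p = 0.216). Without the control library HK6 the value was -1.18 and passed the threshold (adjusted p = 0.0191), and without HK7 it was -0.18.

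Id4 (ENSMUSG00000021379, chr13:48261228-48266026, plus strand) did not follow the other Id genes. It had 4.47 and 11.1 CPM in Smad2/3 DKO fibroblasts, against 4.27 and 4.83 CPM in the Postn-Cre control, so that HK16 alone stood high. The log2 fold change was 0.72 ± 0.53 (adjusted p = 0.624), and without HK16 it was -0.09. Id4 in Tgfbr1/2 DKO fibroblasts had 4.08 and 3.78 CPM, against 11.1 and 6.33 CPM in the Tcf21-Cre control. Both knockout libraries were below both controls, and the log2 fold change of -1.06 ± 0.35 was the furthest below 0 of any member (unadjusted p = 0.0119, adjusted p = 0.125).

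Smad6 and Smad7 encode the inhibitory Smads, which bind activated type I receptors and block phosphorylation of the other Smads. Smad6 acts mainly on BMP receptors, and Smad7 acts on BMP and TGF-β receptors alike. Smad7 (ENSMUSG00000025880, chr18:75367529-75395935, plus strand) was the higher of the pair per kilobase in every library. It had 65.4 and 47.9 CPM in Smad2/3 DKO fibroblasts, against 28.7 and 23.8 CPM in the Postn-Cre control. The groups did not overlap, and the log2 fold change was 1.05 ± 0.25 (unadjusted p = 0.00166, adjusted p = 0.0803). Levels of Smad7 were 51.6 and 66.6 CPM in Tgfbr1/2 DKO fibroblasts, against 67.8 and 93.9 CPM in the Tcf21-Cre control. Both knockout libraries lay below both controls, one of them narrowly, and the log2 fold change was -0.37 ± 0.24 (adjusted p = 0.442).

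Smad6 (ENSMUSG00000036867, chr9:63953076-64022059, minus strand) had 4.11 and 3.21 CPM in Smad2/3 DKO fibroblasts, against 2.12 and 0.74 CPM in the Postn-Cre control. The lowest of these values rests on 17 counts. The groups did not overlap, but the control libraries differed 2.86-fold from each other, and the log2 fold change of 1.29 ± 0.73 had an adjusted p of 0.496. Smad6 in Tgfbr1/2 DKO fibroblasts had 9.24 and 6.38 CPM, against 6.99 and 10.9 CPM in the Tcf21-Cre control. These groups overlapped, with a log2 fold change of -0.14 ± 0.33 (adjusted p = 0.866).

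Bambi (ENSMUSG00000024232, chr18:3507923-3516404, plus strand) encodes a pseudoreceptor, a membrane protein shaped like a type I receptor without the kinase, which dampens BMP and TGF-β signals. It had 15.4 and 14.3 CPM in Smad2/3 DKO fibroblasts, against 7.62 and 7.92 CPM in the Postn-Cre control. Its libraries agreed closely within each group, and leaving out any 1 of the 4 libraries moved the log2 fold change of 0.88 ± 0.35 only within 0.84 to 0.92. The unadjusted p was 0.0306 and the adjusted p 0.297. Bambi in Tgfbr1/2 DKO fibroblasts had 12.6 and 14.5 CPM, against 13.3 and 11.7 CPM in the Tcf21-Cre control. These groups overlapped, with a log2 fold change of 0.20 ± 0.26 (adjusted p = 0.712).

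Atoh8 (ENSMUSG00000037621, chr6:72206177-72235577, minus strand) encodes a basic helix-loop-helix factor known as a BMP target in endothelial cells and hepatocytes. It had the largest fitted value of the 9, on low counts. It had 3.33 and 3.91 CPM in Smad2/3 DKO fibroblasts, from 85 and 84 counts, against 0.769 and 1.26 CPM in the Postn-Cre control, from 20 and 29 counts. The groups did not overlap, and the log2 fold change of 1.78 ± 0.71 had an unadjusted p of 0.0287 and an adjusted p of 0.288. Levels of Atoh8 were 5.25 and 4.14 CPM in Tgfbr1/2 DKO fibroblasts, against 3.63 and 6.60 CPM in the Tcf21-Cre control. The control libraries enclosed the knockout libraries, with a log2 fold change of -0.06 ± 0.39 (adjusted p = 0.950).

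Smad9 (ENSMUSG00000027796, chr3:54755582-54801257, plus strand), which encodes the receptor-activated Smad8, had the lowest mean CPM per kb of the 9 members in each of the 4 groups. It had 2.51 and 2.84 CPM in Smad2/3 DKO fibroblasts, against 1.96 and 2.22 CPM in the Postn-Cre control. The groups did not overlap, yet the log2 fold change of 0.30 ± 0.66 was well within its error (adjusted p = 0.907). Smad9 in Tgfbr1/2 DKO fibroblasts had 2.88 and 3.24 CPM, against 1.40 and 4.86 CPM in the Tcf21-Cre control. The control libraries lay on either side of the knockout libraries, with a log2 fold change of 0.03 ± 0.58 (adjusted p = 0.987).

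Promoter letters from RefSeq (GRCm38.p6, the assembly of mm10) are given for 3 members whose Smad2/3 DKO libraries both lay above both controls and whose window held no annotated exon. Each line is the stretch of 250 bases that ends just before the RefSeq start, on the gene's strand, at chr9:64022060-64022309 (minus) for Smad6, chr3:54755332-54755581 (plus) for Smad9 and chr6:72235578-72235827 (minus) for Atoh8. Capitals mark GGCGCC, a GC-rich element bound by Smad1 and Smad5, and GTCT, the Smad box, with its reverse complement AGAC.
Smad6: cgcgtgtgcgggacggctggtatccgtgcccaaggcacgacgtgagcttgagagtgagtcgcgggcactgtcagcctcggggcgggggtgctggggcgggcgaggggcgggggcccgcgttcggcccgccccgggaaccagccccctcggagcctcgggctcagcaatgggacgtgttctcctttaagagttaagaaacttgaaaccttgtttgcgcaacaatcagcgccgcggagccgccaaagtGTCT
Smad9: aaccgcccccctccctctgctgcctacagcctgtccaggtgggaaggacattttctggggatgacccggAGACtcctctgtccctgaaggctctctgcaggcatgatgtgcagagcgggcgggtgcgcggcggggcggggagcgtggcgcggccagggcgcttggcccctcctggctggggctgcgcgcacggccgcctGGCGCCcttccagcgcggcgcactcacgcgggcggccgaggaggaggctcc
Atoh8: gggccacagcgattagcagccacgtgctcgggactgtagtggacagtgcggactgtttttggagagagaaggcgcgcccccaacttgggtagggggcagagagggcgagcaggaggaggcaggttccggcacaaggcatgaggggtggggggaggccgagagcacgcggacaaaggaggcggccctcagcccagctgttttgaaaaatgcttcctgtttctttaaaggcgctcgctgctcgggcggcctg

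Smad9 held 1 GGCGCC, whose first base lay at -51 from the start, and 1 AGAC. Smad6 held a GTCT as its last 4 bases and no GGCGCC, and Atoh8 held neither. Of the other members with a RefSeq window, Id2 held a GGCGCC from -231, Id4 held one from -148, and Id3 held none but had 2 Smad boxes. The Id2 and Id3 windows lie inside the bounds of their own genes and overlap an annotated exon, and their letters are not printed. The bases just after the Id4 start were not found in an annotated Id4 transcript. GGCGCC was thus present in 3 of the 6 windows found for the 9 members, that of Id2 included, against 9.59% of all 32851 promoter windows of the same length. The 6 windows were 62.8% to 75.6% G or C, and they were not set against windows of like composition. A Smad box on either strand was present in 4 of the 6, those of Id2, Id3, Smad6 and Smad9, against 82.9% of all windows. The palindrome GTCTAGAC was in none of the 6 and in 0.167% of all. A match is a description of the sequence, not a binding site.

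Counted over the Smad2/3 comparison, 0 of the 9 members were called, against 1.29% of the 15760 genes tested (204 genes, 71 higher and 133 lower). With an unadjusted p under 0.05 there were 4 members, Id3, Smad7, Bambi and Atoh8, all higher in Smad2/3 DKO fibroblasts, against 6.21% of all genes in that direction. DESeq2 on the same counts called 2 members, Id3 (adjusted p = 0.00283) and Smad7 (adjusted p = 0.00342), against 4.88% of all genes. A log2 fold change above 0 was found for 9 of 9 members, against 50.6% of all genes. Both knockout libraries lay above both controls for 6 members, Id3, Smad6, Smad7, Smad9, Bambi and Atoh8, against 25.4% of all genes. The median log2 fold change was 0.88 over the members and 0.01 over all genes. The authors' deposited table gave Id3, Smad7 and Bambi log2 fold changes of 1.06, 1.10 and 0.94, close to the fitted ones. Smad6 was at 0.19, Atoh8 at 0.61 and Smad9 at 0.00 in the authors' deposited table, below the fitted values of 1.29, 1.78 and 0.30.

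In the Tgfbr1/2 comparison 0 of 9 members were called by edgeR, against 3.96% of the 16658 genes tested (659 genes, 440 higher and 219 lower), and 0 by DESeq2, against 6.81%. With an unadjusted p under 0.05 there were 2 members, Id2 and Id4, both lower in Tgfbr1/2 DKO fibroblasts, against 8.73% of all genes in that direction. No member had both knockout libraries above both controls, against 21.8% of all genes, and Id2, Id4 and Smad7 had both below, against 29.4%. The median log2 fold change was -0.14 over the members and -0.01 over all genes, and over the members it was -0.62 without HK6 and 0.29 without HK7.

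The effects themselves were compared in a fit of all 8 libraries. The Smad2/3 effect minus the Tgfbr1/2 effect was above 0 for 9 of 9 members, against 50.6% of all genes, and was called for 0, against 1.83% of the 17770 genes tested. With an unadjusted p under 0.05 there were 3, Id4, Smad7 and Atoh8, against 7.89% of all genes in that direction, and DESeq2 called Smad7 alone (adjusted p = 0.0165), against 6.45% of all genes. Smad7 had the smallest p, with a difference of 1.41 ± 0.37 on the log2 scale (unadjusted p = 0.00304, adjusted p = 0.0870). Atoh8 differed by 1.84 ± 0.73 (adjusted p = 0.228) and Id4 by 1.76 ± 0.67 (adjusted p = 0.208), or 0.96 without HK16. Id3 differed by 0.99 ± 0.48 (adjusted p = 0.321), or 0.23 without HK7. The other 5 differences ran between 0.26 for Smad9 and 1.41 for Smad6. The median difference was 1.15 over the members and 0.01 over all genes, and over the members it was 0.70 without HK7 and 0.73 without the Postn-Cre control library HK4.

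**Figure D2:**
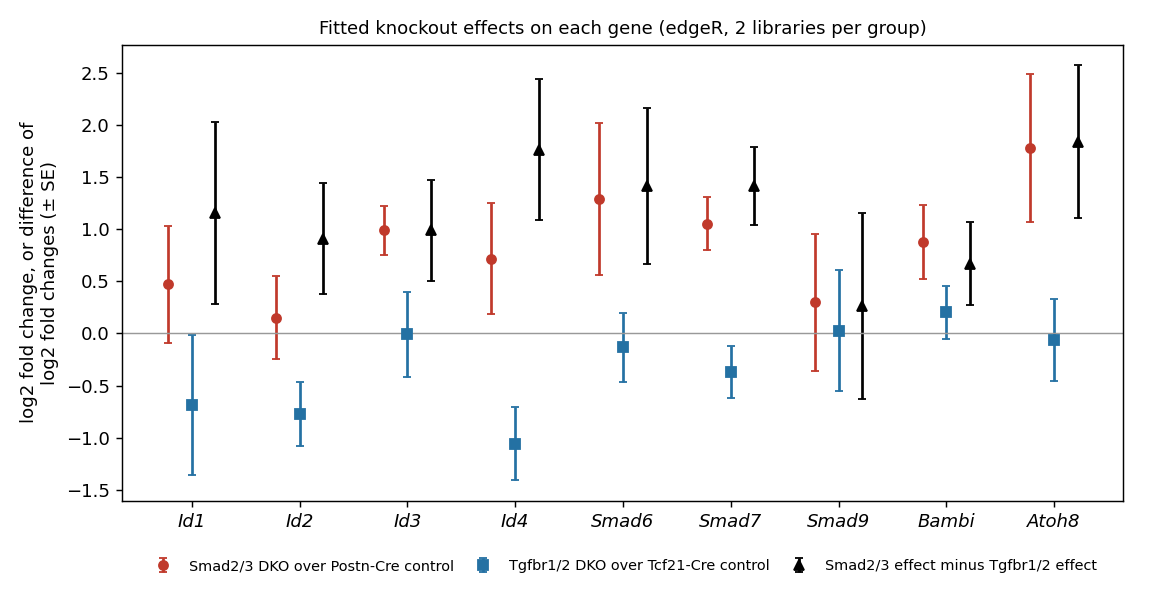
Fitted log2 fold change of each gene (vertical axis, with its SE) in Smad2/3 DKO over Postn-Cre control (red circles) and in Tgfbr1/2 DKO over Tcf21-Cre control (blue squares), and the Smad2/3 effect minus the Tgfbr1/2 effect (black triangles). All 9 red circles and all 9 black triangles stand above 0, and the blue squares of Smad9 and Bambi alone stand above 0.

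These values rest on 2 libraries a group, and single libraries moved several of them. In the Smad2/3 comparison the log2 fold changes of Id3, Smad6, Smad7, Smad9, Bambi and Atoh8 were above 0 without each library in turn, whereas those of Id1, Id2 and Id4 lay on either side of 0. Id3 passed the threshold without the control library HK3, at 1.29 (adjusted p = 0.0194), and did not pass with any other library left out. In the Tgfbr1/2 comparison the count of members above 0 shifted with the library left out. It was 2 of the 9 with all 4 libraries, 6 without the control library HK7 and 1 without the control library HK6. Without the knockout library HK4 it was 4, and without HK2 it was 2. Of all genes, 50.9% were above 0 without HK7, 51.45% without HK6, 48.77% without the knockout library HK4 and 47.22% without HK2. Id2, Id4 and Smad7 were below 0 and Bambi was above 0 without each library in turn.

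**Figure D3:**
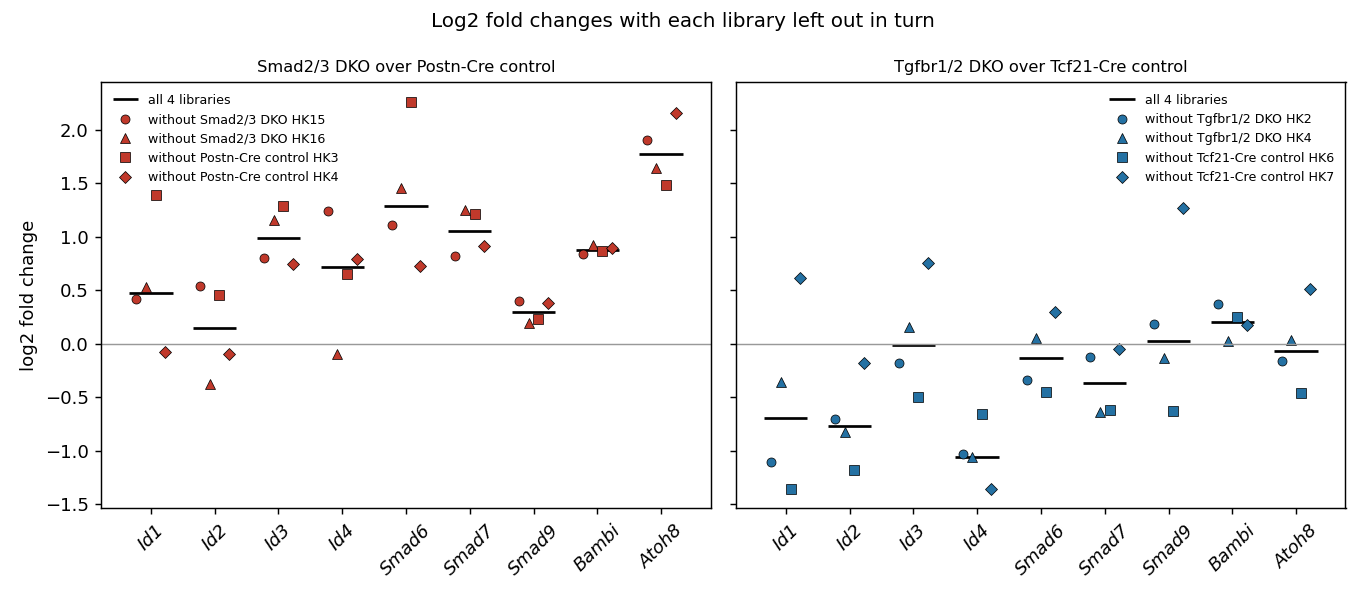
Log2 fold change of each gene with all 4 libraries (black line) and with each library left out (symbols), for Smad2/3 DKO over Postn-Cre control (left) and Tgfbr1/2 DKO over Tcf21-Cre control (right). Bambi stays within 0.84 to 0.92 on the left, and Id1 runs from -1.36 without HK6 to 0.61 without HK7 on the right.

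The spread between the Tcf21-Cre control libraries was wide for these genes. HK7 over HK6 was 3.63-fold for Id1, 3.46-fold for Smad9, 2.20-fold for Id3, 1.85-fold for Id2, 1.82-fold for Atoh8, 1.56-fold for Smad6 and 1.39-fold for Smad7. The ratio was 0.883 for Bambi and 0.570 for Id4. Among all genes with a mean of at least 5 CPM over these 2 libraries, the 5th percentile of this ratio was 0.569, the median 0.959 and the 95th percentile 1.5. Of the 8 members with such a mean, 5 (Id1, Id3, Id2, Atoh8 and Smad6) stood above the 95th percentile, with Id4 at the 5th, and Smad9, at a mean of 3.13 CPM, lies outside the set. Within Smad2/3 DKO fibroblasts, HK15 over HK16 ran from 0.403 for Id4 to 1.37 for Smad7. Id4 and Id2 (0.535) lay below the 5th percentile of that ratio, 0.587. In the Postn-Cre control, HK3 over HK4 was 2.86 for Smad6 and 2.70 for Id1, where the 95th percentile was 1.82. Both genes had a mean under 5 CPM in that group. In Tgfbr1/2 DKO fibroblasts, HK2 over HK4 was 1.86 for Id1, where the 95th percentile was 1.65.

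Across the 4 groups the mean level was lowest in the Postn-Cre control for 8 of the 9 members, all but Id4, against 32.5% of the genes tested. For 7 of the 9, all but Id4 and Bambi, the group means ran from Postn-Cre control through Smad2/3 DKO and Tgfbr1/2 DKO to Tcf21-Cre control, an order shared by 10.4% of genes. Both Postn-Cre control libraries were below all 4 libraries of the Tcf21 driver for Id2, Id3, Smad6, Smad7, Bambi and Atoh8, against 37.6% of genes. For Id3 the means were 102 ± 18.3, 49.2 ± 12.2, 215 ± 51.0 and 224 ± 119 CPM in Smad2/3 DKO, Postn-Cre control, Tgfbr1/2 DKO and Tcf21-Cre control fibroblasts (SD, n = 2 each). Neighbours in that order overlapped at its upper end, between Tgfbr1/2 DKO and Tcf21-Cre control, and the same held for Smad6, Smad9 and Atoh8. Groups further apart in the order overlapped too. For Smad9 the Tcf21-Cre control library HK6, at 1.40 CPM, was the lowest of all 8 libraries. For Atoh8 HK6, at 3.63 CPM, lay below the Smad2/3 DKO library HK16, at 3.91 CPM. For Smad7 the overlap was between Smad2/3 DKO and Tgfbr1/2 DKO, for Id2 between Smad2/3 DKO and Postn-Cre control, and for Id1 between every pair of neighbours. Bambi was highest in Smad2/3 DKO. For Bambi, Tgfbr1/2 DKO overlapped both Smad2/3 DKO and the Tcf21-Cre control, which did not overlap each other. Id4 was lowest in Tgfbr1/2 DKO. These are levels set across runs and drivers.

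Sorted cells carry genes induced during tissue digestion, and 10 of these (Fos, Jun, Egr1, Zfp36 and others) were summed for each library. The sum was 5631 and 4896 CPM in Smad2/3 DKO fibroblasts, against 3789 and 2717 CPM in the Postn-Cre control. Both of these knockout libraries lay above both controls for 8 of the 10 genes, against 25.4% of all genes. The sum was 17340 and 14030 CPM in Tgfbr1/2 DKO fibroblasts, against 11780 and 18340 CPM in the Tcf21-Cre control. The 8 libraries stood in exactly the same order for Id3 as for this sum, which held for 0.141% of the genes tested. Smad6 had 6 of the 8 libraries at the same place, Smad7 had 5, Id1 had 4, Smad9 and Atoh8 had 3, and Id2, Id4 and Bambi had 1.

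Of the 10 immediate early genes, Egr1 rose in Smad2/3 DKO fibroblasts. It had 1360 and 1440 CPM, against 868 and 770 CPM in the Postn-Cre control, a log2 fold change of 0.71 ± 0.14 (adjusted p = 0.0386). The call was lost without HK4 (adjusted p = 0.0845), HK15 (0.138) or HK16 (0.153) and in the fit of all libraries (0.202). The list's median log2 fold change was 0.63 in the Smad2/3 comparison and 0.16 in the Tgfbr1/2 comparison. The part of this shift in the values of Id3 and the other members was not tested.

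**Figure D4:**
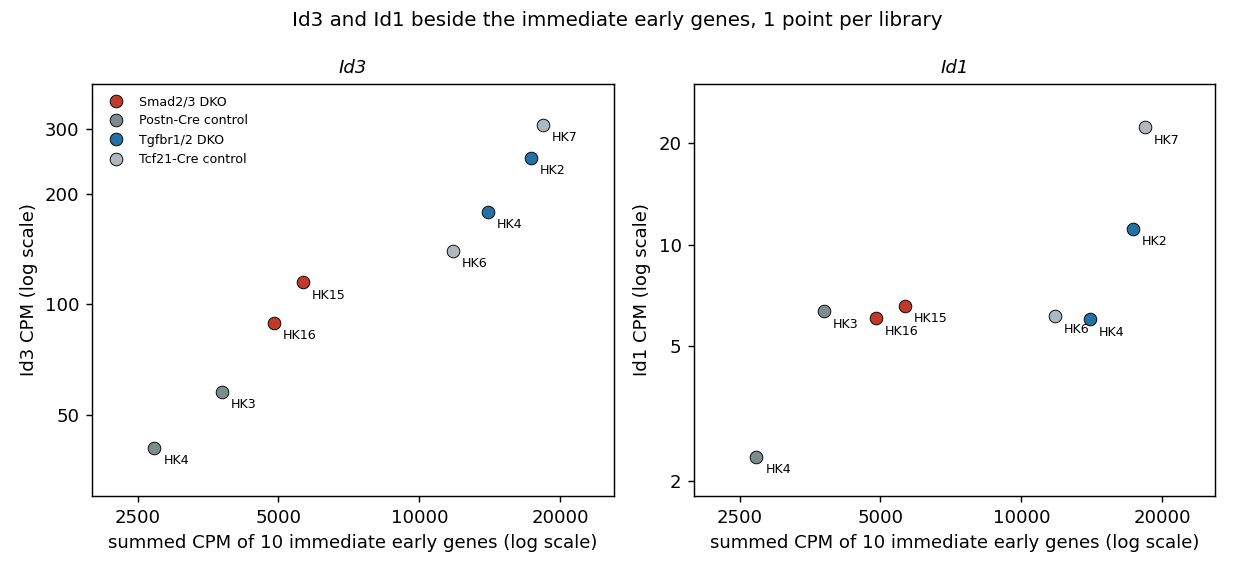
Level of Id3 (left) and Id1 (right) against the summed level of 10 immediate early genes, in CPM on log axes, with 1 point per library and HK numbers beside the points. Id3 stands in the same order as the sum in all 8 libraries, whereas Id1 is near 6 CPM in 5 libraries whose sums run from 3789 to 14030 CPM.

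Genes with the pattern most like that of Id3 were found by the root mean square difference in log2(CPM + 1), centred within each run, over the 8 libraries and 8242 genes with a mean of at least 10 CPM. The nearest to Id3 were Meox1 (0.148), Cryz (0.171) and Klf2 (0.188), and the nearest to Id1 were Klf2 (0.282), Clec2d (0.292) and Egr2 (0.297). Klf2, a zinc finger factor that was near both, had 10.2 and 8.66 CPM in Smad2/3 DKO fibroblasts, against 7.00 and 5.09 CPM in the Postn-Cre control, and 36.7 and 21.6 CPM in Tgfbr1/2 DKO fibroblasts, against 20.2 and 43.9 CPM in the Tcf21-Cre control. Its libraries stood in the order of Id3 throughout. Among the members the nearest pair was Id3 and Smad6, at 0.180, and Id3 was also the member nearest to Id1 (0.343), Smad9 (0.380) and Atoh8 (0.287). Smad7 lay nearest to Smad6 (0.277) and Bambi nearest to Smad7 (0.288). Id2 lay nearest to Smad9 (0.402) and Id4 nearest to Id2 (0.462). A member's own spread around its run means is its distance from a flat pattern. For Smad9 this was 0.34, less than its distance from Id3, so the likeness means little there. It was 0.312 for Bambi, 0.425 for Id2 and 0.514 for Id4, little above their nearest distances. The spread was 0.609 for Id1, 0.506 for Id3, 0.478 for Atoh8, 0.459 for Smad6 and 0.454 for Smad7.

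The rest of the pathway was read from lists of ligands, receptors, Smads, antagonists and partners. Of 14 BMP ligands, 7 passed the filter on low counts in the Smad2/3 comparison and 8 in the Tgfbr1/2 comparison, and 0 were called in either. Bmp4, the most abundant, had 156 and 109 CPM in Smad2/3 DKO fibroblasts, against 113 and 75.4 CPM in the Postn-Cre control, and 121 and 102 CPM in Tgfbr1/2 DKO fibroblasts, against 177 and 181 CPM in the Tcf21-Cre control. The log2 fold change was 0.42 ± 0.24 in the Smad2/3 comparison (adjusted p = 0.492) and -0.61 ± 0.18 in the Tgfbr1/2 comparison (adjusted p = 0.0923). Bmp2 and Bmp6 had log2 fold changes between -0.28 and 0.09 in both comparisons.

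Of 11 receptors and co-receptors, 10 and 11 were tested, and Eng alone was called. Eng encodes endoglin, a co-receptor that favours signalling through Smad1 and Smad5 and is also abundant in endothelial cells. It had 311 and 279 CPM in Tgfbr1/2 DKO fibroblasts, against 190 and 172 CPM in the Tcf21-Cre control, and rose by 0.78 ± 0.18 on the log2 scale (adjusted p = 0.0423), a call lost without each of the 4 libraries (adjusted p up to 0.168). In Smad2/3 DKO fibroblasts it had 50.8 and 36.4 CPM, against 84.8 and 72.9 CPM in the Postn-Cre control, a log2 fold change of -0.92 ± 0.23 (adjusted p = 0.0920). Summed endothelial markers were 216.6 and 128.6 CPM in Smad2/3 DKO fibroblasts, against 470.6 and 199.8 CPM in the Postn-Cre control, and 259.9 and 269.5 CPM in Tgfbr1/2 DKO fibroblasts, against 283.8 and 258.7 CPM in the Tcf21-Cre control. Of the 12 markers 0 were called in either comparison and none was at 0 counts in any library. Their median log2 fold change was -1.37 in the Smad2/3 comparison and 0.42 in the Tgfbr1/2 comparison. In the latter both knockout libraries lay above both controls for 7 of the 12 and below for 1, against 21.8% and 29.4% of all genes. The part of endothelial cells in the values of Eng and of Atoh8 was not tested.

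None of the 3 transducers, Smad1, Smad5 and Smad4, was called. Smad1 had 86.7 and 93.9 CPM in Smad2/3 DKO fibroblasts, against 114 and 103 CPM in the Postn-Cre control (log2 fold change -0.32 ± 0.18, adjusted p = 0.483). It had 45.1 and 56.3 CPM in Tgfbr1/2 DKO fibroblasts, against 82.8 and 72.2 CPM in the Tcf21-Cre control (-0.52 ± 0.20, adjusted p = 0.185). Both knockouts thus had Smad1 libraries below both of their controls without a call. Smad5 and Smad4 had log2 fold changes between -0.22 and 0.01.

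Of 16 secreted antagonists and modulators, 12 were tested in each comparison. Bmper, which binds BMPs outside the cell, had 179 and 199 CPM in Tgfbr1/2 DKO fibroblasts, against 72.2 and 83.5 CPM in the Tcf21-Cre control, and rose by 1.36 ± 0.20 (adjusted p = 0.00722). Fstl3, a follistatin-like binder of activins, had 36.5 and 41.4 CPM in Tgfbr1/2 DKO fibroblasts, against 19.3 and 14.3 CPM in the Tcf21-Cre control, and rose by 1.31 ± 0.23 (adjusted p = 0.0143), a call lost without HK7 (0.0591) or the knockout library HK4 (0.0772). None was called in Smad2/3 DKO fibroblasts, where Bmper had 28.9 and 28.3 CPM, against 58.9 and 34.2 CPM in the Postn-Cre control (-0.76 ± 0.29, adjusted p = 0.266). Fstl3 in Smad2/3 DKO fibroblasts had 17.9 and 15.6 CPM, against 8.62 and 4.44 CPM in the Postn-Cre control (1.29 ± 0.41, adjusted p = 0.172). The antagonists' median log2 fold change was 0.20 in the Smad2/3 comparison and -0.21 in the Tgfbr1/2 comparison.

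Of 12 intracellular modulators, all tested, Nedd4l alone was called. Nedd4l, a ubiquitin ligase that targets activated Smad2 and Smad3, had 39.5 and 45.4 CPM in Smad2/3 DKO fibroblasts, against 79.7 and 113 CPM in the Postn-Cre control, and fell by 1.24 on the log2 scale (SE 0.23, adjusted p = 0.0241), a call lost without HK4 (0.0582) or HK15 (0.142) and in the fit of all libraries (0.139). Of 16 other genes reported to respond to BMP, 12 were tested in the Smad2/3 comparison and 15 in the Tgfbr1/2 comparison, with 0 called in either. Their median log2 fold changes were 0.19 and -0.42, and their median difference between the effects was 0.91. Tbx20, a cardiac transcription factor, had 1030 and 1020 CPM in Smad2/3 DKO fibroblasts, against 693 and 616 CPM in the Postn-Cre control (0.59 ± 0.14, adjusted p = 0.0821). In Tgfbr1/2 DKO fibroblasts Tbx20 had 598 and 447 CPM, against 784 and 685 CPM in the Tcf21-Cre control (-0.42 ± 0.21, adjusted p = 0.303). Of 8 helix-loop-helix factors that pair with Id proteins, 7 were tested and 0 were called in either comparison.

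The TGF-β arm was read from 7 feedback and early response genes, all tested. Adam12, a metalloprotease of activated fibroblasts, had 1.76 and 2.37 CPM in Smad2/3 DKO fibroblasts, against 24.2 and 26.6 CPM in the Postn-Cre control, and fell by 3.67 on the log2 scale (SE 0.38, adjusted p = 0.00148). In Tgfbr1/2 DKO fibroblasts it had 60.1 and 58.3 CPM, against 14.1 and 9.38 CPM in the Tcf21-Cre control, and rose by 2.42 ± 0.23 (adjusted p = 0.000486). Tgfbi, a secreted matrix protein, had 194 and 190 CPM in Tgfbr1/2 DKO fibroblasts, against 430 and 424 CPM in the Tcf21-Cre control, and fell by 1.07 (SE 0.19, adjusted p = 0.0163), a call lost without HK7 (0.0565), HK2 (0.0969) or the knockout library HK4 (0.0796). In Smad2/3 DKO fibroblasts Tgfbi had 117 and 119 CPM, against 153 and 118 CPM in the Postn-Cre control (-0.27 ± 0.18, adjusted p = 0.596).

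Library totals ran from 21477646 to 32594474 counts. The targeted genes were not depleted at the level of the whole gene: Smad2 had 84.5 and 78.2 CPM in Smad2/3 DKO fibroblasts, against 95.4 and 82.3 CPM in the Postn-Cre control, and the log2 fold changes of Smad3, Tgfbr1 and Tgfbr2 in their own comparisons were -0.26, -0.24 and 0.25 (adjusted p 0.533 to 0.702). Whole-gene counts cannot show the loss of single exons. The 10 fibroblast markers were detected in every library. Their sums were 19220 and 18880 CPM in Smad2/3 DKO fibroblasts, against 27090 and 23050 CPM in the Postn-Cre control, and Col1a1, Col1a2 and Col3a1 fell in the knockout, by 1.44 to 2.15 on the log2 scale. They were 35030 and 34510 CPM in Tgfbr1/2 DKO fibroblasts, against 38650 and 47080 CPM in the Tcf21-Cre control, with 0 markers called. Myeloid markers were at 197.1 and 211.3 CPM in Tgfbr1/2 DKO fibroblasts, against 54.4 and 81.7 CPM in the Tcf21-Cre control, where 4 of 9 rose, and up to 3 of the 9 had 0 counts in the Smad2/3 run. Epicardial markers were at 427.1 and 444.1 CPM in Tgfbr1/2 DKO fibroblasts, against 83.9 and 46.4 CPM in the Tcf21-Cre control. Most of the sum in the knockout was Aldh1a2, at 387 and 420 CPM in Tgfbr1/2 DKO fibroblasts, against 49.3 and 16.5 CPM in the Tcf21-Cre control. Of the 5 epicardial markers tested there, Aldh1a2 alone was called. Both knockout libraries lay above both controls for 3 of the 5 and below for 1, against 21.8% and 29.4% of all genes. Wt1 and Tbx18 had log2 fold changes of -0.86 and -0.03. Cycling markers were at 29.8 and 15.9 CPM in Smad2/3 DKO fibroblasts, against 64.0 and 66.2 CPM in the Postn-Cre control. Mki67 alone had 9.79 and 3.59 CPM in Smad2/3 DKO fibroblasts, against 39.2 and 33.8 CPM in the Postn-Cre control. It was the only one called of the 7 tested, and both knockout libraries lay below both controls for 3 of the 7. Pericyte markers were at 797.1 to 1639 CPM, cardiomyocyte markers at 559.7 to 757 CPM and Schwann cell markers at 14.9 to 49.5 CPM over the 8 libraries. Of the 10 pericyte markers, 1 was called lower in Smad2/3 DKO and 1 higher in Tgfbr1/2 DKO fibroblasts. Of the 9 cardiomyocyte markers 0 were called. Their median log2 fold change was -1.21 in the Smad2/3 comparison, with both knockout libraries below both controls for 6 and above for 2. Atp2a2, at 634 and 582 CPM, made up most of the cardiomyocyte sum in Smad2/3 DKO fibroblasts. In bulk libraries, fewer cells of a type and less RNA per cell cannot be told apart, and the part of these cells in the members' values was not tested.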

How the data were processed

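Expected counts were deposited for every library and Ensembl gene, under the word raw in the file headers (38087 identifiers; 12.6% of the values above 0 were whole within a tolerance of 1e-06), and log2 values per library with a log2 fold change, per the file headers. The submitters' processing notes name mm10 as the build. The aligner is not given in the sources used here, nor is the counting tool. No strand marking is described in the labels' protocols, so reads of genes that overlap, antisense ones included, cannot be separated by strand.

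Each expected count was rounded to a whole number, and entries sharing a symbol were then added up (278 symbols from 3966 entries), leaving 34399 symbols, 9141 of them without a count. CPM is the count divided by the library total, times 1000000; 3 counts correspond to 0.092 to 0.14 CPM, a floor that covers counting error only. Levels per kb use the merged exon length in GENCODE vM21, with 95.3% of identifiers found. For each comparison its 4 libraries alone were fitted with edgeR 4.0.16 (R 4.3.3; TMM, filterByExpr, robust quasi-likelihood F test, two-sided, Benjamini-Hochberg adjustment, threshold 0.05), and the difference between the effects in a fit of all 8. SEs come from the F statistic and the fitted log2 fold change. All p-values given for genes come from these fits unless DESeq2 1.42.0 is named. On simulated counts with 100 genes changed by each fold, 32%, 45% and 4% of 2-fold changes and 84%, 98% and 71% of 4-fold changes were recovered in the Smad2/3, Tgfbr1/2 and difference designs, and 9 of 125, 18 of 161 and 5 of 80 calls were unchanged genes.

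The members, the gene lists and the rules were chosen with earlier results of these data known. Named were all members, the targeted genes, genes called in each pathway list or otherwise its most abundant, and the nearest genes by pattern; from the marker lists the sums are given. The HK numbers pair nothing between groups. Alternatives were DESeq2-type size factors, no low-count filter, DESeq2, no robust estimation, entries kept apart by identifier, a fit of all 8 libraries, and leaving out each library in turn.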

Additional observations from a re-analysis of the deposited data

Results flagged for a closer look

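Genes of the pathway and marker lists whose effect differed between the Smad2/3 and the Tgfbr1/2 comparison, by the edgeR test of the difference in all 8 libraries, were 6, and none of the 9 BMP target genes was among them. Adam12 differed by -6.11 ± 0.39 on the log2 scale (SE, Smad2/3 effect minus Tgfbr1/2 effect, adjusted p = 3.13e-05). Aldh1a2, which encodes a retinoic acid synthesising enzyme found in epicardium, differed by -5.04 ± 0.54 (adjusted p = 0.00143). Bmper differed by -2.13 ± 0.36 (adjusted p = 0.0188), a call lost without HK15 (0.0564), HK16 (0.0678) or the Tgfbr1/2 DKO library HK4 (0.0561). The fibrillar collagen gene Col3a1 differed by -1.88 ± 0.37 (adjusted p = 0.0314), a call lost without HK3, HK15, HK16 or the Tgfbr1/2 DKO library HK4. Eng differed by -1.71 ± 0.27 (adjusted p = 0.0149), a call lost without HK16 (0.0607). Kcnj8, a potassium channel gene of pericytes that lies outside the rule for named genes and is given here to complete the count, differed by -3.89 ± 0.69 (adjusted p = 0.0212), a call lost without HK3 (0.0503), HK16 (0.0632), HK7 (0.0596) or the Tgfbr1/2 DKO library HK4 (0.0554).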

How the results depend on the processing

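Without a low-count filter, edgeR called 819 of 23153 genes for Smad2/3 (3.54%), 1233 of 24027 for Tgfbr1/2 (5.13%) and 1194 of 25258 for the difference (4.73%). DESeq2, with the filter, called 769 (4.88%), 1134 (6.81%) and 1146 (6.45%). In the main fits the shares were 1.29%, 3.96% and 1.83%. Of the 9 members, 2 were then called in the Smad2/3 comparison under either alternative, Id3 (adjusted p 0.00071 without the filter, 0.00283 with DESeq2) and Smad7 (0.00443 and 0.00342). For the difference, 2 were called without the filter, Id3 (0.0348) and Smad7 (0.00219), and 1 with DESeq2, Smad7 (0.0165). The fit of all 8 libraries called 299 genes in the Tgfbr1/2 comparison and put Id3 there at 0.00. The cause of these shifts was not tested. Leaving out 1 library at a time gave 105 to 297 genes for Smad2/3 (105 without HK15), 271 to 485 for Tgfbr1/2 (each library moved the count of 659 past 1.5 times except HK6) and 89 to 302 for the difference (302 and 254 without the Postn-Cre control library HK4 and without HK6, at most 176 without any other); members called ran from 0 to 1 in both comparisons and were 0 for the difference.

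Directions turned for some members without 1 library. In the Smad2/3 comparison Id1 ran from -0.08 to 1.39, Id2 from -0.38 to 0.54 and Id4 from -0.09 to 1.24. In the Tgfbr1/2 comparison Id1 ran from -1.36 to 0.61, Id3 from -0.50 to 0.75, Smad6 from -0.45 to 0.29, Smad9 from -0.63 to 1.27 and Atoh8 from -0.46 to 0.51. For the difference, Id1 ran from -0.15 to 2.08 and Smad9 from -0.97 to 0.89. Over the log2 fold changes of single genes and the alternatives that kept every library, 252 values kept their direction and side of the threshold, 7 passed it, 7 no longer passed it and 1 reversed. Without 1 library the same counts were 200, 2, 31 and 15. No paired analysis was possible because the groups compared share fewer than 2 HK numbers. With 2 libraries a group, an effect of 2-fold is often missed at this depth of replication.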
